A study of Mus musculus with 30 samples.

Results

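The ACBP pump was examined within the restraint model of anorexia, by comparing 5 liver libraries of the group CRS+ACBP with 5 of the group CRS, 10 of the 30 libraries in the series. The libraries were chosen by their treatment label. All came from wild-type female C57BL/6J mice, 8 weeks old when an osmotic pump (a device under the skin that releases its content slowly) was implanted. CRS mice carried a pump filled with phosphate-buffered saline (PBS) and CRS+ACBP mice a pump with recombinant ACBP at 2.5 mg/mL. CRS, read here as restraint stress because the labels give the letters alone, began 48 hours after implantation in both groups. Reference groups of 5 were PBS and ACBP, which had the same pumps without restraint, and CDDP and CDDP+ACBP, which had the pumps and then cisplatin at 72 hours. No group had food restricted alone, and food intake was not analysed here. The labels do not say that each library came from its own animal, so p-values measure the spread between these libraries, which may be technical.

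ACBP, the acyl-CoA-binding protein (also called diazepam-binding inhibitor), is encoded by Dbi. Inside cells it binds long-chain acyl-CoA esters. Released from cells, it is known to act on GABA-A receptors, to restrain autophagy and to raise food intake. The liver answers stress hormones and inflammatory cytokines by making acute phase proteins, and answers fasting by releasing glucose and burning fat. The comparison asks how the liver transcriptome of restrained mice differed when ACBP was supplied.

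No gene passed edgeR's quasi-likelihood test between CRS+ACBP and CRS (0 of 14880 tested, 0%, at a Benjamini-Hochberg adjusted p under 0.05). Nor did limma voom call any, while DESeq2 called 11 (0.0739%). At an unadjusted edgeR p under 0.05 there were 834 genes (5.6%), 352 higher (2.37%) and 482 lower (3.24%) in CRS+ACBP. The counts of list members at this p given below are to be read beside these shares. The libraries of both groups did not overlap for 44 genes with all CRS+ACBP values higher (0.296%) and for 89 with all values lower (0.598%). The genes with the smallest p were acute phase genes at lower levels in CRS+ACBP, with lower Sik1 and higher G0s2 beside them. In simulated counts for this comparison, with 200 of 14620 genes changed, the test recovered 60% of genes changed 2-fold and 86% of those changed 4-fold. Recovery with fewer changed genes was not simulated. Counts were drawn for each gene independently, so differences between libraries that many genes share were not simulated either. Recovery in the real libraries may therefore be lower. What follows are levels and differences that did not pass the edgeR test, except where a passing result is named. Levels are counts scaled to library size (CPM) for replicates 1 to 5 in that order, and log2 fold changes, CRS+ACBP over CRS, are given ± an approximate standard error.

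Saa1, Saa2, Lcn2 and Orm3 were the 4 acute phase genes whose libraries did not overlap between the groups, and their promoters are shown for that reason. The letters are the 250 bases before the RefSeq transcription start (mouse GRCm38.p6), 5′ to 3′ in the direction of the gene. Capitals mark matches, on either strand, to GGG followed by any 5 bases and CC, a pattern for NF-kB sites, or to TTGCNNAA, a pattern for C/EBP sites. Both factor families are known to act on acute phase genes.
Saa1: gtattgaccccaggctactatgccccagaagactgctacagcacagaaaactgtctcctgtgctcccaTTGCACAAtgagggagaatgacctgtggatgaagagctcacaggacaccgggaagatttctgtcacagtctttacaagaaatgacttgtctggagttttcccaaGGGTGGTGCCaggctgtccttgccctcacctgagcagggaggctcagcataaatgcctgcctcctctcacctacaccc
Saa2: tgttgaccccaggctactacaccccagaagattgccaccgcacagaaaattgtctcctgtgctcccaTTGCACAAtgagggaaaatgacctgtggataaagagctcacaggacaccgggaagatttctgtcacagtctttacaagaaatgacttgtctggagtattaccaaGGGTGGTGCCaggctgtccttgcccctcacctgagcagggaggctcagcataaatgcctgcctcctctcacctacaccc
Lcn2: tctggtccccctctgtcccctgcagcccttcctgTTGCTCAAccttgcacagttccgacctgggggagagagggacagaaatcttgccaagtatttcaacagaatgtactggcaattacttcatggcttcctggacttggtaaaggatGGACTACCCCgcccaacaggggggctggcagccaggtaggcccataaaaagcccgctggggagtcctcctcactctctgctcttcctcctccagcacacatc
Orm3: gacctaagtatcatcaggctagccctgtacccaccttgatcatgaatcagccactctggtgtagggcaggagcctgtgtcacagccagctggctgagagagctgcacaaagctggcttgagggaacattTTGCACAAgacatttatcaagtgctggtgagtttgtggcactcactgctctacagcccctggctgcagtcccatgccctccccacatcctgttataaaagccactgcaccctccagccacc
These lie at chr7:46742981-46743230 (minus strand) for Saa1, chr7:46751583-46751832 (plus) for Saa2, chr2:32387740-32387989 (minus) for Lcn2 and chr4:63355908-63356157 (plus) for Orm3. The gene coordinates given below are from GENCODE, whose gene starts can differ from the RefSeq starts. By the GENCODE coordinates the Lcn2 window lies inside the gene, and the Saa2 window runs past the gene start. TTGCNNAA had 1 match in each of the 4 promoters and in 9.57% of 32536 RefSeq promoters of this length. The NF-kB pattern had 1 match in Saa1, Saa2 and Lcn2 and 0 in Orm3, against 46.0% of all promoters. The patterns TTCNNNGAA (STAT) and CTGGGAA (interleukin-6 response) had 0 matches in the 4 windows, and were found in 7.04% and 9.14% of promoters. The Saa1 and Saa2 promoters were identical at 238 of 250 bases (95.2%). A match describes letters and not a bound site. Acute phase genes whose groups overlapped were not searched separately, so whether the matches go with the difference between groups was not tested.

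Saa2 (ENSMUSG00000057465, chromosome 7, 46751790 to 46754313), which encodes a serum amyloid A protein that the inflamed liver releases onto lipoproteins, read 969.9, 603, 1344, 394 and 1574 CPM in CRS. In CRS+ACBP it read 126, 90.3, 7.56, 30.6 and 26.7 CPM. Each CRS+ACBP library lay below every CRS library. PBS libraries stood at 6.73 ± 1.89 CPM (SD, n = 5) and ACBP libraries at 17.8 ± 11.6, and CRS+ACBP replicates 3, 4 and 5 lay within the range of the ACBP libraries. The log2 fold change was -4.13 ± 0.66, with edgeR adjusted p = 0.296. Saa1 (ENSMUSG00000074115, chromosome 7, 46740497 to 46742980), its neighbour, read 1199.7, 980.1, 1736, 635 and 2048 CPM in CRS. It read 486, 258, 13.4, 90.9 and 86.6 CPM in CRS+ACBP, again with no overlap and with replicate 3 the lowest (log2 fold change -2.83 ± 0.69, edgeR adjusted p = 0.854). Reads of Saa1 and Saa2 could be split between these near-identical genes, so their separate values are uncertain.

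Lcn2 (ENSMUSG00000026822, chromosome 2, 32384633 to 32388252), which encodes lipocalin-2, a protein that withholds iron from bacteria by binding siderophores, read 249.5, 172, 248, 185 and 416 CPM in CRS and 70.7, 109.8, 21.2, 61.3 and 45.8 in CRS+ACBP. The groups did not overlap, and the log2 fold change was -2.04 ± 0.36 (edgeR adjusted p = 0.303). Even the lowest CRS+ACBP library was above the PBS mean of 10.2 ± 2.75 CPM. Orm3 (ENSMUSG00000028359, chromosome 4, 63356162 to 63359511), 1 of the alpha-1-acid glycoprotein genes, read 37.4, 34.1, 24.7, 41.5 and 54.4 CPM in CRS. Its CRS+ACBP libraries lay close together at 19.7, 18.7, 14.9, 18.9 and 16.6 CPM, below all CRS libraries (log2 fold change -1.11 ± 0.18, edgeR adjusted p = 0.296). Orm3 shares sequence with Orm1 and Orm2, which makes its counts uncertain. Orm2 read 420.4, 333, 348, 304 and 751 CPM in CRS and 311, 340.0, 98.9, 247 and 170.3 in CRS+ACBP, with overlapping groups (log2 fold change -0.89 ± 0.32, or -0.59 without CRS replicate 5).

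Haptoglobin (Hp), the abundant scavenger of free hemoglobin, read 5804, 6560.1, 7897, 5778 and 8591 CPM in CRS and 5911, 4672, 3381, 6797 and 4185 in CRS+ACBP (log2 fold change -0.47 ± 0.21). Its groups overlapped, and both lay above the PBS mean of 3053 ± 174 CPM. Saa3, the serum amyloid gene that macrophages also use, stood at 7.47 to 17.5 CPM in CRS and 3.72 to 11.4 in CRS+ACBP. At an unadjusted p under 0.05, 7 of the 27 acute phase genes tested were lower in CRS+ACBP and 0 were higher. In all genes tested, 3.24% were lower and 2.37% higher. Of the 27, 4 were lower without overlap of the groups, beside 0.598% of all genes tested. When 1 library was left out at a time, 4 (without CRS replicate 5) to 10 (without CRS replicate 4) were lower. The median log2 fold change of the 27 was -0.12, beside 0.01 for all genes tested, and ranged from -0.29 (without CRS+ACBP replicate 1) to -0.05 (without CRS+ACBP replicate 3) over these fits. The list as a whole therefore lay much nearer to 0 than Saa1, Saa2 and Lcn2 did. Among 18 genes of cytokine signalling, 1 was lower at that p, Nfkbiz, the NF-kB cofactor IkB-zeta (log2 fold change -0.42 ± 0.18), and 0 were higher. Of all genes tested, 5.6% had such a p in either direction, so 1 of 18 was near that share. Stat3, the factor that interleukin-6 activates, read 75.5, 81.5, 95.5, 86.6 and 78.3 CPM in CRS and 155, 95.9, 85, 69.2 and 70.7 in CRS+ACBP, where replicate 1 stood above the rest. Among 34 interferon-stimulated genes 0 passed an unadjusted p of 0.05 in either direction (median -0.02).

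**Figure D1:**
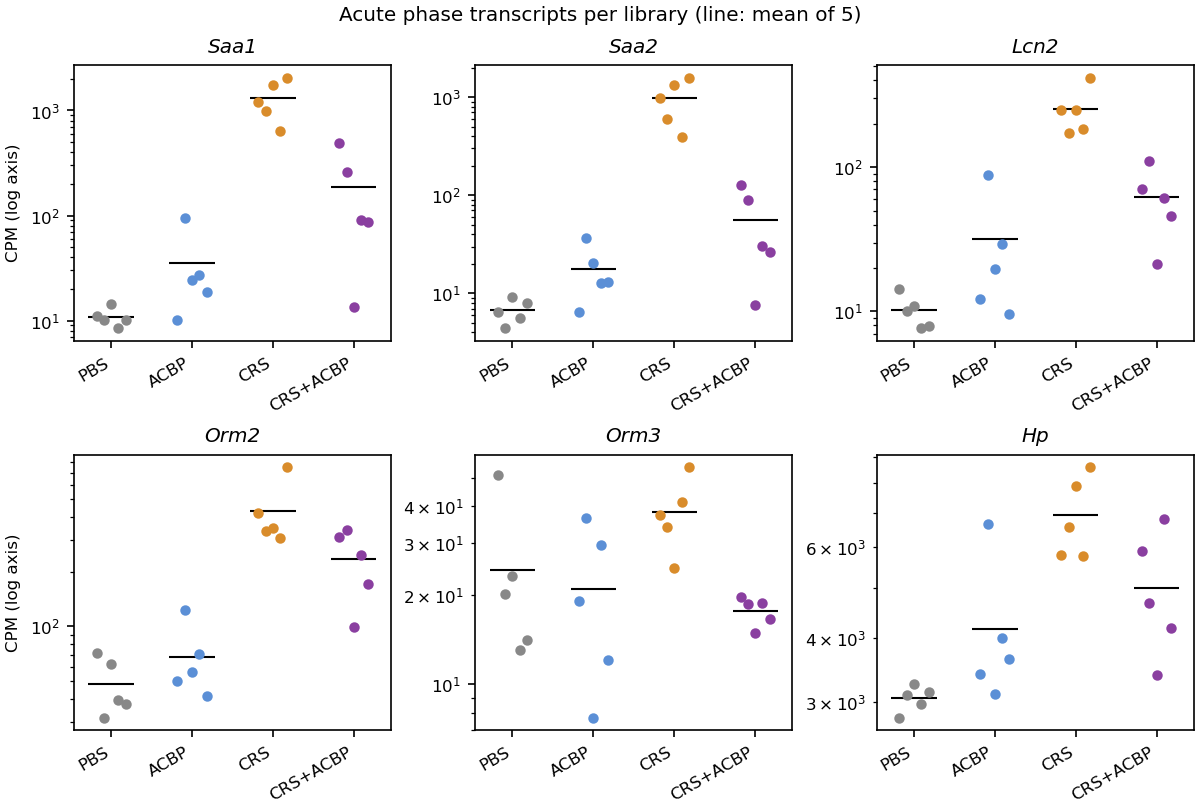
Levels of 6 acute phase transcripts (CPM, log axis) in each library of PBS, ACBP, CRS and CRS+ACBP. Points are libraries and lines are means of 5. For Saa1, Saa2, Lcn2 and Orm3 every CRS+ACBP point lies below every CRS point, while Orm2 and Hp overlap.

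Markers of inflammatory cells were read beside these levels. The markers of neutrophils and inflammatory monocytes (16 listed, 5 of them tested) summed to 9.84 to 13 CPM in CRS and 7.12 to 14.1 in CRS+ACBP. The 16 markers of Kupffer cells and macrophages summed to 524 to 680 CPM in CRS and 406 to 681 in CRS+ACBP. Their median log2 fold change was -0.10 and 2 of 16 lay above 0, beside 52.2% of all genes tested. Over the fits without 1 library the median ranged from -0.19 to -0.005. It was 0.07 when CRS replicate 1 and CRS+ACBP replicates 3 and 4 were left out together. Cd68, a lysosomal marker of macrophages, read 8.86, 8.83, 7.59, 9.73 and 12.3 CPM in CRS and 5.54, 8.57, 6.31, 5.43 and 8.72 in CRS+ACBP (log2 fold change -0.45 ± 0.19). In bulk liver, fewer cells of a type and less RNA per cell cannot be told apart. The part of these cells in the acute phase levels was not tested.

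Sik1 (ENSMUSG00000024042, chromosome 17, 31844250 to 31855804), a salt-inducible kinase that cyclic AMP switches on and that restrains gluconeogenic transcription, read 29.98, 47.8, 57.9, 30.9 and 46.6 CPM in CRS. In CRS+ACBP it read 11.3, 17.9, 17.7, 14.9 and 25.4 CPM. All CRS+ACBP libraries were below all CRS libraries, with a log2 fold change of -1.28 ± 0.23 (edgeR adjusted p = 0.303). The PBS mean was 65.1 ± 29.98 CPM and the ACBP mean 34.1 ± 19.3. Of 17 gluconeogenesis genes, 2 had an unadjusted p under 0.05 and were lower, Sik1 and Slc25a25, and 0 were higher (median -0.11). Of all genes tested, 3.24% were lower at that p. Slc25a25, a mitochondrial carrier of adenine nucleotides, ranged from 12 to 313 CPM in CRS and from 44.6 to 126 in CRS+ACBP. Pck1, the rate-setting gluconeogenic enzyme, read 1996, 3075, 3796, 3736 and 3236 CPM in CRS and 1407, 2295, 2592, 3329.7 and 2405 in CRS+ACBP (log2 fold change -0.38 ± 0.23, or -0.24 without CRS+ACBP replicate 1), with overlap.

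Insulin and fasting hormones set the expression of many liver genes. Igfbp1, a secreted binder of insulin-like growth factors that insulin represses, read 29.6, 31.4, 66.2, 59.3 and 54.7 CPM in CRS and 45.9, 17, 22.7, 34.3 and 15.8 in CRS+ACBP (log2 fold change -0.82 ± 0.31). The 2 groups overlapped. Of 21 genes of insulin signalling, glycolysis and glycogen, 2 were higher and 2 lower at an unadjusted p under 0.05. Among them were Igfbp1 and a pair of glycogen-targeting subunits of protein phosphatase 1. Ppp1r3c was higher (log2 fold change 0.56 ± 0.24, or 0.27 without CRS+ACBP replicate 1), and Ppp1r3g was lower (-1.07 ± 0.39). Among 23 glucocorticoid receptor targets, 1 was higher, Cdkn1a, and 2 were lower, Lcn2 and Gadd45g (median -0.06). The log2 fold change of Cdkn1a was 1.46 ± 0.56, or 0.55 without CRS+ACBP replicate 1, its highest library. Lcn2 is also counted in the lists of acute phase genes and of liver hormones that act on appetite. Tat, tyrosine aminotransferase, ranged from 685 to 1566 CPM in CRS and from 577 to 945 in CRS+ACBP.

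G0s2 (ENSMUSG00000009633, chromosome 1, 193272161 to 193273217), which encodes an inhibitor of the triglyceride lipase ATGL, read 35.4, 48.3, 34.7, 26.9 and 39.6 CPM in CRS. It read 62, 86.4, 59.2, 80.9 and 54.6 CPM in CRS+ACBP, where every library was above every CRS library (log2 fold change 0.90 ± 0.18, edgeR adjusted p = 0.622). Unrestrained mice stood at 86.3 ± 16.7 CPM with the PBS pump and 70.7 ± 42.3 with the ACBP pump. G0s2 lies opposite Lamb3 on the genome, and the strand setting of the counting is not given in the sources used here. Plin2, which coats lipid droplets, read 104, 142, 213, 89.8 and 163 CPM in CRS and 511, 304, 250.3, 181 and 153 in CRS+ACBP (log2 fold change 0.98 ± 0.31). Plin5, the droplet protein that tethers mitochondria, read 20.2, 24.5, 31.1, 18.3 and 23.5 CPM in CRS and 66.6, 49.98, 42.8, 30.3 and 20.6 in CRS+ACBP (log2 fold change 0.84 ± 0.26). CRS+ACBP replicate 1 was the highest library for both. Without it their log2 fold changes were 0.65 and 0.61. Of 18 lipid droplet genes, 6 were higher and 0 lower at an unadjusted p under 0.05, with a median of 0.32. Leaving out 1 library gave 3 (without CRS replicate 1) to 7 higher, and a median from 0.06 (without CRS+ACBP replicate 3) to 0.37. The other 3 were Mgll, the monoglyceride lipase (0.43 ± 0.17), Abhd5, the activator of ATGL (0.37 ± 0.14), and Fitm2, a droplet-forming protein (0.43 ± 0.17, or 0.24 without CRS+ACBP replicate 4, its highest library). The higher members thus held both an inhibitor and an activator of lipolysis. CRS+ACBP replicates 4 and 5 lay within the range of the CRS libraries for both Plin2 and Plin5.

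Acot1 (ENSMUSG00000072949, chromosome 12, 84009490 to 84018371), a cytosolic acyl-CoA thioesterase and a target of PPARalpha, read 5.11, 12, 10.6, 5.92 and 10.1 CPM in CRS. It read 30.8, 24.5, 24.4, 18 and 9.94 CPM in CRS+ACBP, where replicates 1 to 4 lay above all CRS libraries and replicate 5 among them (log2 fold change 1.31 ± 0.29, edgeR adjusted p = 0.805). Cpt2, the inner-membrane carnitine palmitoyltransferase, read 87.2, 125, 127, 103 and 117 CPM in CRS and 155, 160.3, 146, 203 and 129 in CRS+ACBP with no overlap (log2 fold change 0.51 ± 0.15). Cyp4a10, a fatty acid omega-hydroxylase, had a log2 fold change of 0.47 ± 0.16. Among 28 genes of fatty acid oxidation and PPARalpha, 4 were higher and 0 lower at that p, 24 lay above 0 and the median was 0.24. Over the fits without 1 library, 3 to 8 were higher, with 8 without CRS replicate 3 or CRS+ACBP replicate 5. In all genes tested, 52.2% lay above 0. Fatty acid synthesis gave 3 higher of 20 and 0 lower (median 0.19), namely Elovl5, an elongase of polyunsaturated fatty acids (0.55 ± 0.16), Scd1, the stearoyl-CoA desaturase (0.60 ± 0.25), and Me1, malic enzyme (0.57 ± 0.23). Scd1 and Me1 were highest in CRS+ACBP replicates 1 and 3, and the other 3 replicates lay closer to CRS. Without CRS replicate 2 or 4 or CRS+ACBP replicate 3, 1 gene of this list was higher, and without CRS replicate 3 there were 5. Among cholesterol genes Hmgcs1, an early enzyme of the pathway, was higher (0.67 ± 0.30). It was 1 of 23 at that p, beside 2.37% of all genes tested, and 21 of the 23 lay above 0 (median 0.26). Without CRS replicate 3, 9 of these were higher at that p, while 5 of the 10 fits without 1 library gave 0.

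Dbi (ENSMUSG00000026385, chromosome 1, 120113280 to 120121078), the gene of ACBP itself, read 612, 722, 872, 327 and 629.8 CPM in CRS and 1055, 736, 783, 776 and 530.4 in CRS+ACBP. The groups overlapped, with a log2 fold change of 0.30 ± 0.23 and a 95% interval from -0.21 to 0.81 (edgeR adjusted p = 0.863). Without CRS replicate 4 it was 0.14 and without CRS+ACBP replicate 1 0.17. The pump supplies protein, so this mRNA does not measure the ACBP delivered. Of 9 genes tested in the list of ACBP and acyl-CoA handling, 9 had a log2 fold change above 0 (median 0.30) and 1 had an unadjusted p under 0.05 (0 to 3 over the fits without 1 library). That gene was Acsl1, which makes acyl-CoA from fatty acids, at 352, 458, 590.2, 476 and 525 CPM in CRS and 551, 563, 565, 750.3 and 692 in CRS+ACBP (log2 fold change 0.39 ± 0.16). Fabp1, the liver fatty acid-binding protein, read 2392, 3806, 4878, 2087 and 3993 CPM in CRS and 4136, 4537, 5159, 4643 and 5139 in CRS+ACBP (log2 fold change 0.47 ± 0.22). Acbd5, which joins peroxisomes to the endoplasmic reticulum, had 0.31 ± 0.17 (0.15 without CRS+ACBP replicate 4). Eci2, an enoyl-CoA isomerase with an acyl-CoA-binding domain, had 0.27 ± 0.14 (0.18 without CRS replicate 1). When CRS replicate 1 and CRS+ACBP replicates 3 and 4 were left out together, Acbd5 had 0.04 and Eci2 0.10. The median of the list was then 0.23. Acbd3 (0.05 ± 0.17), Acbd4 (0.07 ± 0.12) and Acbd6 (0.28 ± 0.13) overlapped between groups as well. Of 12 genes for GABA-A receptors and TSPO, the mitochondrial binding partner of ACBP, 3 were abundant enough to be tested, and Tspo had a log2 fold change of -0.02 ± 0.19. Of 29 autophagy and lysosome genes, 2 were higher at an unadjusted p under 0.05 and 0 lower (median 0.08). These were Map1lc3a (0.40 ± 0.16) and Gabarapl2 (0.40 ± 0.18), which encode proteins of the autophagosome membrane. Without CRS replicate 4 or 5 or CRS+ACBP replicate 1 or 2, 0 of the list were higher at that p.

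Among hormones of the liver that act on appetite, Gdf15 (ENSMUSG00000038508, chromosome 8, 70629393 to 70632456), which suppresses feeding through a receptor in the hindbrain, read 8.57, 6.93, 4.31, 6.28 and 3.95 CPM in CRS. It read 14.5, 16.4, 7.87, 11.9 and 10.1 CPM in CRS+ACBP, where 4 of 5 libraries were above all of CRS (log2 fold change 1.02 ± 0.25, edgeR adjusted p = 0.854). Without restraint its mean was 17.5 ± 7.61 CPM under the PBS pump and 31.7 ± 19.3 under the ACBP pump. Nucb2, the precursor of nesfatin, read 6.36, 7.05, 9.26, 6.63 and 7.78 CPM in CRS and 7.22, 3.18, 2.69, 4.06 and 4.40 in CRS+ACBP (log2 fold change -0.78 ± 0.25). Lepr, the leptin receptor gene, read 9.03, 10.5, 8.75, 11.1 and 13.3 CPM in CRS and 6.66, 7.41, 4.75, 10.3 and 3.52 in CRS+ACBP (log2 fold change -0.68 ± 0.25). Fgf21, a fasting hormone, read 0.852, 0.613, 3.35, 3.10 and 2.28 CPM in CRS and 1.12, 5.02, 2.81, 3.10 and 10.3 in CRS+ACBP. Its log2 fold change of 1.15 ± 0.57 was 0.58 without CRS+ACBP replicate 5, the highest library. Angptl8, a feeding-induced regulator of lipoprotein lipase, had 0.39 ± 0.19 (0.26 without CRS replicate 3). In this list of 17, 1 was higher, Gdf15, and 3 were lower, Nucb2, Lepr and Lcn2, at an unadjusted p under 0.05 (median 0.11).

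The remaining genes of smallest p with a mean of at least 5 CPM belonged to no common list. Id1, an inhibitor of basic helix-loop-helix factors and a target of bone morphogenetic proteins, read 10.4, 5.83, 9.71, 9.73 and 8.39 CPM in CRS and 31, 10.3, 16.4, 17 and 21 in CRS+ACBP (log2 fold change 1.12 ± 0.26). Bmf, a pro-apoptotic BH3-only protein, read 15.1, 28.5, 16.5, 20.03 and 25.3 CPM in CRS and 6.22, 12.8, 8.43, 13.4 and 10.3 in CRS+ACBP with no overlap (log2 fold change -1.03 ± 0.24). Jund, an AP-1 subunit, read 84.5, 75.1, 78.5, 69 and 73.6 CPM in CRS and 124, 107, 118, 96.9 and 90.8 in CRS+ACBP, also with no overlap (log2 fold change 0.50 ± 0.12). Pfas, an enzyme of purine synthesis, was lower in each CRS+ACBP library than in each CRS library (11.9 to 15.3 against 17.8 to 28.3 CPM, log2 fold change -0.72 ± 0.16). The same held for Ift88, a cilium transport gene (4.24 to 5.95 against 7.10 to 7.97 CPM), and for 3110052M02Rik (3.88 to 5.55 against 6.87 to 11 CPM). Arl4d, a small GTPase, overlapped in 1 CRS+ACBP library (27.1 to 54.2 against 47.9 to 90.5 CPM, log2 fold change -0.89 ± 0.22). Adjusted p in edgeR was 0.805 for Id1, Bmf, Pfas and 3110052M02Rik and 0.854 for Jund, Ift88 and Arl4d.

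**Figure D2:**
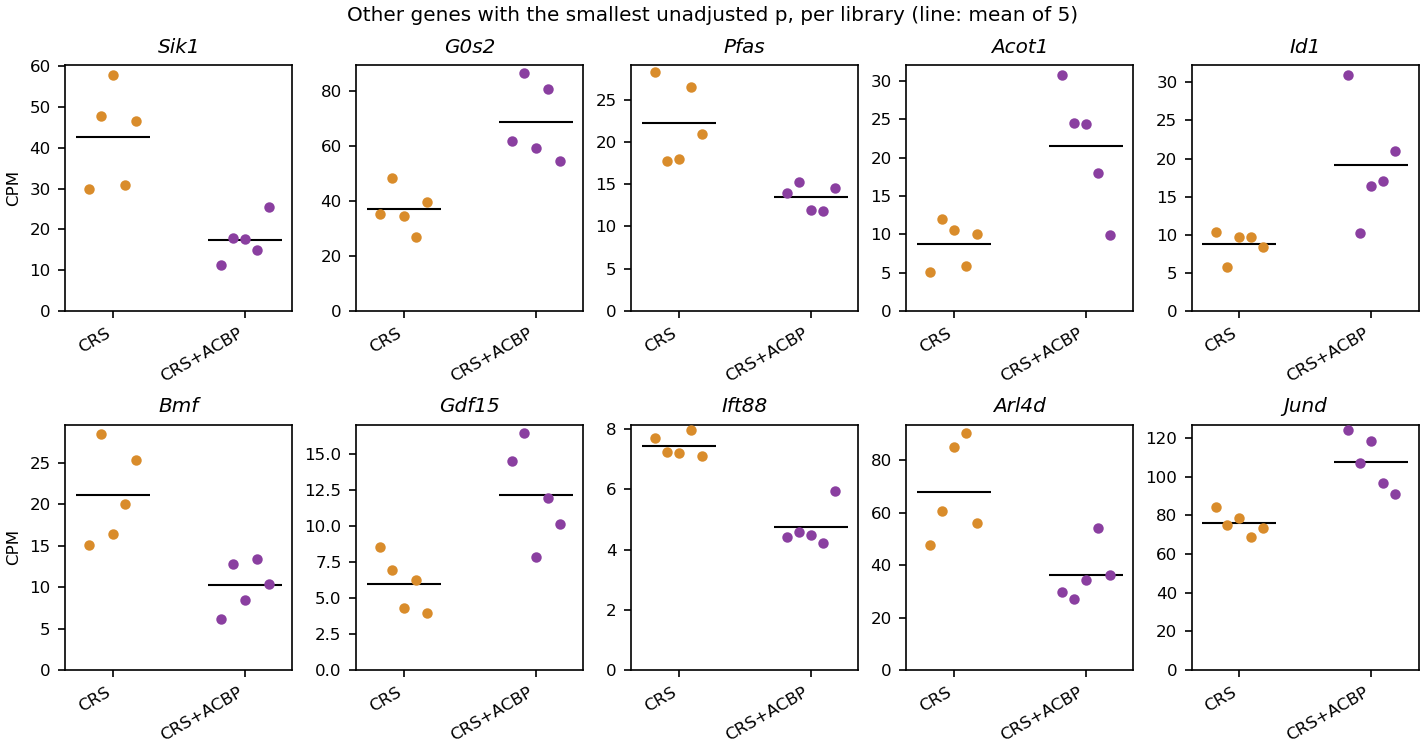
Levels (CPM) in each library of CRS and CRS+ACBP for 10 of the 15 genes with the smallest unadjusted p among those with a mean of at least 5 CPM. The other 5 are Saa1, Saa2, Lcn2 and Orm3, drawn with the acute phase genes, and 3110052M02Rik. Points are libraries and lines are means of 5. Sik1, Pfas, Bmf and Ift88 lie lower in CRS+ACBP and G0s2 and Jund higher, each without overlap, and none passed the edgeR test.

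DESeq2 called 11 genes in the same libraries, 6 higher and 5 lower in CRS+ACBP. The 5 lower genes were Saa2, Lcn2, Orm3, Sik1 and Bmf. The 6 higher were G0s2, Acot1, Id1, Mup1, Ankrd50 and Dntt. Ankrd50, an ankyrin repeat gene, read 3.69, 3.68, 3.67, 3.46 and 2.96 CPM in CRS and 7.03, 6.74, 5.75, 5.25 and 5.95 in CRS+ACBP. Dntt, which encodes terminal deoxynucleotidyl transferase, read 1.19, 1.90, 2.12, 2.04 and 2.47 CPM in CRS and 4.42, 5.02, 3.12, 3.70 and 6.56 in CRS+ACBP. Both were higher in every CRS+ACBP library than in any CRS library. The calls of this tool and of edgeR at adjusted p under 0.05 thus differed for these 11 genes.

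Genes that are higher in male than in female liver, which the rhythm of growth hormone sets through STAT5, had the largest median of the 32 pathway lists. Of 22 tested, 20 lay above 0 and 8 were higher and 0 lower at an unadjusted p under 0.05, with a median log2 fold change of 0.88. Mup20, a major urinary protein, read 19.99, 36.2, 27.7, 24.3 and 33.1 CPM in CRS and 89.5, 37.4, 58.7, 34.8 and 51.9 in CRS+ACBP (log2 fold change 0.95 ± 0.24). Mup1 read 0.681, 1.04, 2.44, 0.987 and 1.11 CPM in CRS and 2.18, 7.72, 3.81, 7.22 and 4.06 in CRS+ACBP (log2 fold change 2.01 ± 0.41). Mup genes are near-identical copies whose reads cannot be assigned with certainty, so the members of this list are not independent. Slco1a1, an organic anion transporter, read 20.8, 94.5, 97.1, 72.6 and 40.8 CPM in CRS and 169, 101, 98.1, 76.5 and 140.4 in CRS+ACBP (log2 fold change 0.85 ± 0.35). Elovl3, an elongase of very long fatty acids, had a log2 fold change of 1.29 ± 0.46. Without CRS+ACBP replicate 1 the median was 0.68, with 7 higher. Without CRS+ACBP replicate 5 it was 0.38, with 4 higher and 1 lower, and 4 were higher without CRS replicate 1 or 5 as well. The most were 12, without CRS+ACBP replicate 4. Of 22 female-high genes (median -0.10), 1 was lower and 0 were higher at that p, beside 3.24% and 2.37% of all genes tested. Of 17 genes of the growth hormone axis, 0 passed that p in either direction.

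Chaperones help proteins to fold and rise when proteins are damaged. Of 20 heat shock genes, 6 were higher and 0 lower at an unadjusted p under 0.05 and the median was 0.27. Without CRS+ACBP replicate 3, 1 was higher, without CRS replicate 1 there were 2, and without CRS replicate 2 or CRS+ACBP replicate 1 there were 3, while the most were 9, without CRS+ACBP replicate 2. Over these fits the median ranged from 0.16 to 0.35. Hspa8, the constitutive HSC70, read 832, 764, 847, 849.8 and 1192 CPM in CRS and 1277, 978, 1519, 1120.1 and 1044 in CRS+ACBP (log2 fold change 0.41 ± 0.17). Chordc1, a partner of HSP90, had 0.51 ± 0.16, and the inducible Hspa1b was highest at 28.4 CPM in CRS+ACBP replicate 3. In the unfolded protein response, 22 of 22 genes lay above 0 (median 0.26), and 2 were higher at that p, Creld2 (1.04 ± 0.38) and Dnajb9 (0.63 ± 0.26). Hspa5, the endoplasmic reticulum chaperone BiP, read 180.2, 339, 409.6, 195 and 241 CPM in CRS and 928, 244, 406, 241 and 357 in CRS+ACBP. CRS+ACBP replicate 1 held the highest level of all 3, and without it the list's median was 0.13 with 0 genes at that p. Without CRS+ACBP replicate 4 there were 7. Among xenobiotic cytochromes and conjugation enzymes, 2 of 33 were higher and 0 lower at that p (median 0.01), beside 2.37% and 3.24% of all genes tested. Cyp3a11 was 1 of the 2 higher (0.58 ± 0.21). Abcg5 (-0.52 ± 0.22) and Abcg8 (-0.37 ± 0.15), which together export sterols into bile, were the 2 lower of 20 bile acid and transport genes at that p, and 1 was higher. Without CRS+ACBP replicate 1 there were 0 in either direction, and 5 of the 10 fits without 1 library had 0 lower. These 2 genes lie head to head and overlap on the genome, so their counts are not independent.

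**Figure D3:**
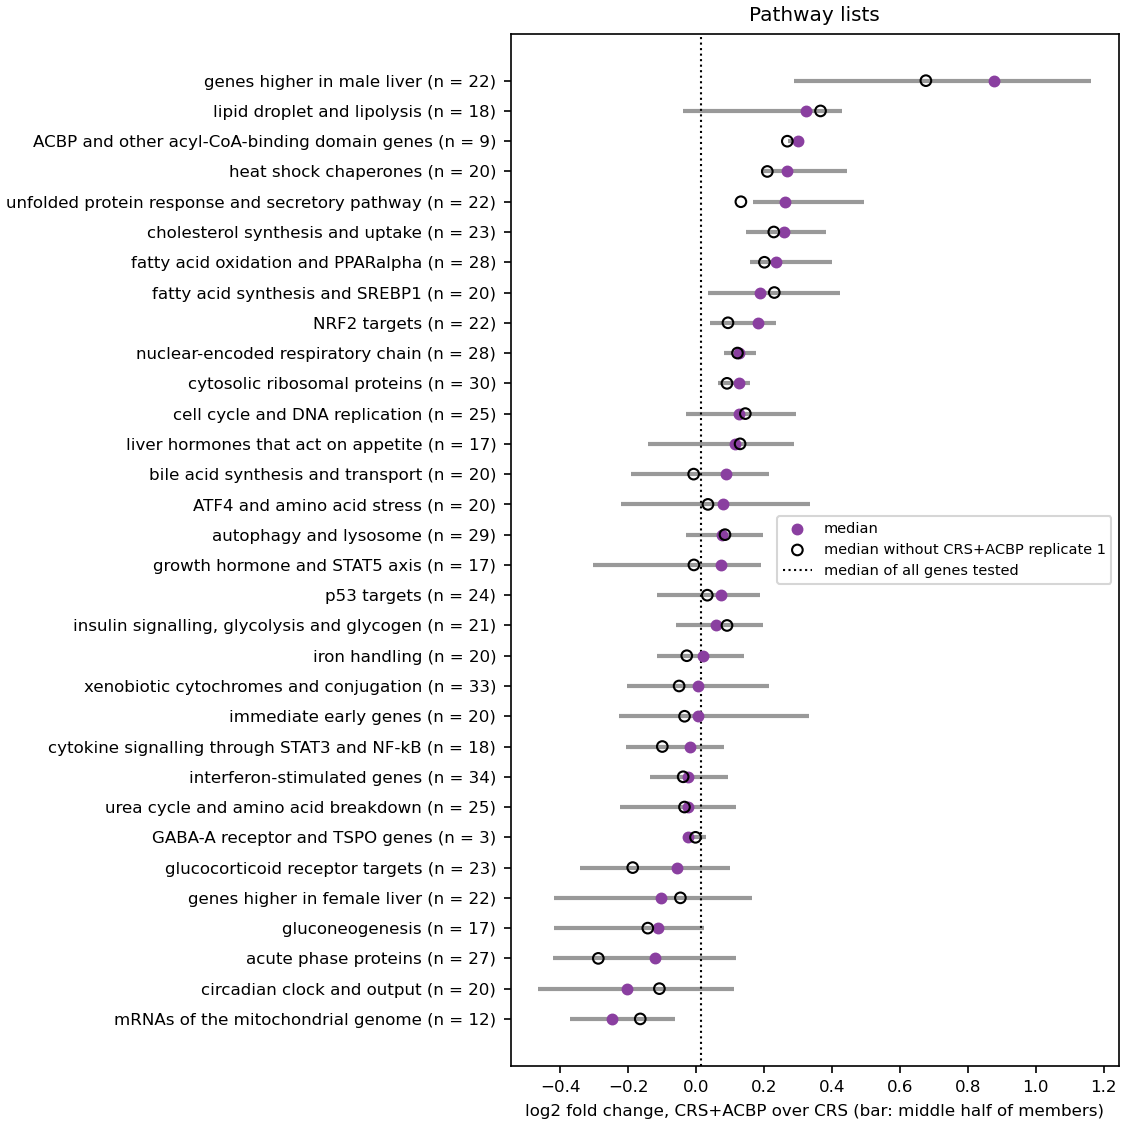
Log2 fold changes, CRS+ACBP over CRS, in 32 pathway lists. Filled points are medians of the tested members, grey bars run from the lower to the upper quartile of members, open circles are medians without CRS+ACBP replicate 1 and the dotted line is the median of all genes tested. Male-high genes have the largest median, 0.88, and mRNAs of the mitochondrial genome the lowest, -0.25.

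Some libraries stood apart within their group. CRS+ACBP replicate 1 differed in the genes of the circadian clock. Arntl, the activator of the clock, read 1.93, 1.29, 1.35, 1.06 and 0.432 CPM in CRS and 21.2, 1.04, 0.874, 0.418 and 1.35 in CRS+ACBP. The clock repressor Per3 read 184, 80.2, 70.7, 149 and 131 CPM in CRS and 9.71, 63.9, 99.2, 105 and 84.6 in CRS+ACBP, and Per1 and Per2 were likewise lowest in this library, at 11.8 and 9.95 CPM. The labels give no hour of collection. Without CRS+ACBP replicate 1, the log2 fold change of Arntl was -0.40 in place of 2.01 ± 0.93. The median of the 20 clock genes was then -0.11 in place of -0.20. Over the fits without 1 library, this median ranged from -0.41 (without CRS+ACBP replicate 4) to -0.10 (without CRS replicate 1). The acute phase list kept its direction without CRS+ACBP replicate 1, with 9 of 27 lower at an unadjusted p under 0.05 and a median of -0.29. Saa2 then had a log2 fold change of -4.66, Sik1 -1.16 and G0s2 0.93.

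Skeletal muscle transcripts differed between libraries. The 24 muscle markers summed to 60.9 to 4107 CPM in CRS and 88.5 to 3119 in CRS+ACBP, and 22 of 24 had a log2 fold change above 0 (median 0.34, from -0.18 without CRS+ACBP replicate 3 to 2.38 without CRS replicate 1). Acta1, the actin of skeletal muscle, read 729, 3.50, 0.0643, 196 and 0 CPM in CRS and 41.2, 156, 512, 459.6 and 0 in CRS+ACBP. It was above 40 CPM in 2 CRS and 4 CRS+ACBP libraries and listed at 0 in CRS replicate 5 and CRS+ACBP replicate 5. Without the 3 libraries with a muscle score (mean log2 CPM of the markers) over 5, which were CRS replicate 1 and CRS+ACBP replicates 3 and 4, the log2 fold change was -3.60 for Saa2, -1.77 for Lcn2, -1.33 for Sik1 and 0.85 for G0s2, and edgeR called 0 genes. Hepatocyte markers summed to 95099 to 155937 CPM in CRS and 128057 to 145240 in CRS+ACBP, as in liver. B and plasma cell markers gave 3 higher of 11 at an unadjusted p under 0.05 (median 0.40, with 1 higher without CRS replicate 3 or CRS+ACBP replicate 4 or 5), among them Igkc, the kappa light chain (0.53 ± 0.19). CRS replicate 4 had the fewest reads on genes, 13957380, and the highest share on mitochondrial genes, 17.4%. The other 9 libraries held 15376103 to 17245912 reads on genes, with 4.73% to 15.3% on mitochondrial genes.

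**Figure D4:**
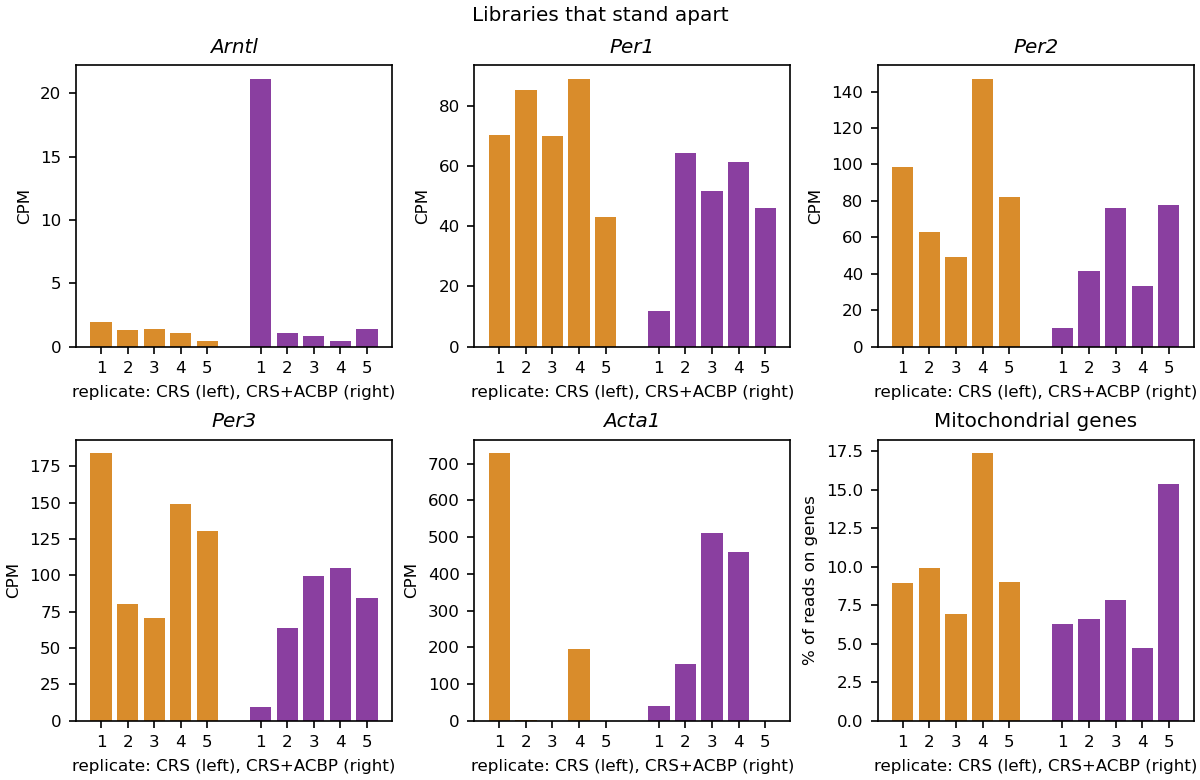
Levels (CPM) of the clock genes Arntl, Per1, Per2 and Per3 and of the muscle actin Acta1, and the share of reads on mitochondrial genes (%), in each library of CRS (orange) and CRS+ACBP (purple). CRS+ACBP replicate 1 has the highest Arntl, 21.2 CPM, and the lowest Per1, Per2 and Per3. CRS replicate 4 has the highest mitochondrial share.

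Whether the pump acted differently with and without restraint was tested as a difference of log2 fold changes over 20 libraries of PBS, ACBP, CRS and CRS+ACBP. Of 15762 genes, 1 passed in edgeR (0.00634%), Saa2, and 655 (4.16%) had an unadjusted p under 0.05. Unrestrained libraries read 6.40, 4.40, 9.16, 5.66 and 8.04 CPM of Saa2 with the PBS pump and 6.49, 36.5, 20.5, 12.6 and 13 with the ACBP pump. The ACBP pump went with a log2 fold change of 1.40 ± 0.56 there and of -4.12 ± 0.60 under restraint, a difference of -5.52 ± 0.82 (edgeR adjusted p = 0.0171). All 5 CRS+ACBP libraries were below every CRS library, while 4 of 5 ACBP libraries were above every PBS library. The call was lost without PBS replicate 1, 2, 4 or 5, without CRS+ACBP replicate 4 or 5, without the libraries of a muscle score over 5, and when all 30 libraries shared 1 fit. Over the fits without 1 library the difference itself ranged from -6.06 to -5.09.

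The next genes did not pass in edgeR. Saa1 had a difference of -4.52 ± 0.92 (edgeR adjusted p = 0.297) and Lcn2 of -3.68 ± 0.69 (edgeR adjusted p = 0.229). DESeq2 called both (adjusted p = 0.00693 and 0.00303), and edgeR called Lcn2 with no filter on low counts (adjusted p = 0.0458). Lcn2 read 14.4, 10.1, 10.9, 7.63 and 7.92 CPM in PBS and 12.2, 88.4, 19.6, 29.1 and 9.66 in ACBP, where replicate 2 was the highest. Tnfrsf14, a receptor of the tumor necrosis factor family, read 0.478, 0.521, 0.738, 0.246 and 0.249 CPM in PBS and 7.94, 3.37, 0.239, 8.44 and 3.26 in ACBP. Under restraint it read 8.91, 10.5, 8.23, 11.8 and 8.46 CPM with the PBS pump and 6.35, 8.82, 6.99, 10.4 and 6.63 with the ACBP pump, and the difference of -3.65 ± 0.71 did not pass (edgeR adjusted p = 0.243). It passed without ACBP replicate 3, the ACBP library at the PBS level (-3.96, edgeR adjusted p = 0.000358), and in DESeq2 (adjusted p = 0.00693). Orm3 (-0.90 ± 0.52) and G0s2 (1.18 ± 0.37) did not pass either, though G0s2 did without ACBP replicate 1 (1.63, edgeR adjusted p = 0.0112). In simulated counts for this test, with 200 of 15568 genes changed, 28% of differences of 2-fold and 72% of those of 4-fold were recovered. The limits given for the first simulation apply here too.

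**Figure D5:**
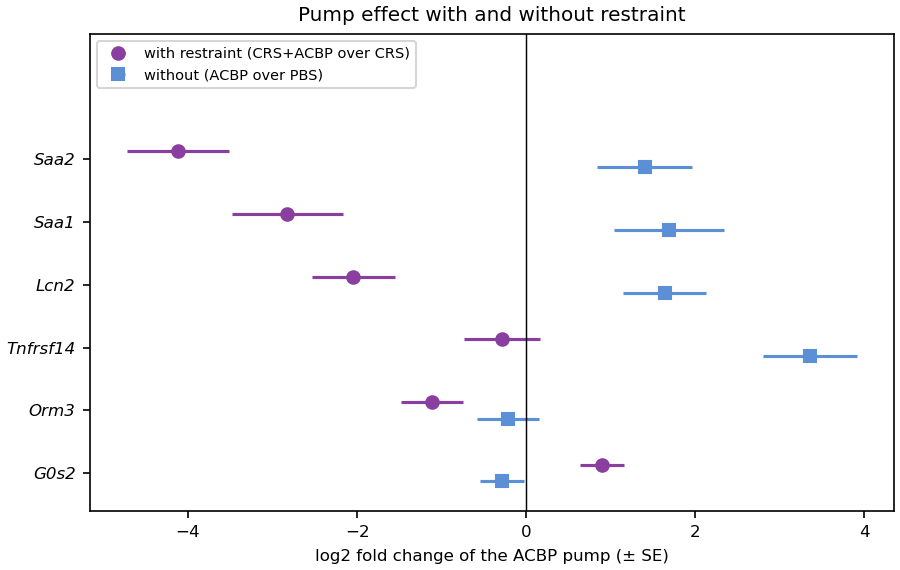
Log2 fold change of the ACBP pump (± SE) with restraint (circles, CRS+ACBP over CRS) and without (squares, ACBP over PBS) for 6 genes, from the fit of 20 libraries. Saa2, Saa1 and Lcn2 lie below 0 with restraint and above 0 without, and the difference passed the test for Saa2 alone of the 6.

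The pump was set against its counterpart in the cisplatin model in the same way, over 20 libraries of CDDP, CDDP+ACBP, CRS and CRS+ACBP. Of 15859 genes, 2276 passed in edgeR (14.4%), 1260 with a more positive (7.95%) and 1016 with a more negative pump effect under restraint (6.41%), and 4947 (31.2%) had an unadjusted p under 0.05. The 6 genes with the smallest p were globins, Hectd2 and its antisense neighbour 1500017E21Rik, for which the CRS arms lay close together. Hba-a1, an alpha-globin of red blood cells, stood at 363 ± 248 CPM in CRS and 288 ± 139 in CRS+ACBP, against 1.34 ± 0.354 in CDDP and 424 ± 224 in CDDP+ACBP. Its difference was -8.62 ± 0.77 (edgeR adjusted p = 1.11e-06). Hectd2, a ubiquitin ligase gene, stood at 47.2 ± 7.16 CPM in CRS and 53.8 ± 8.21 in CRS+ACBP, against 4.36 ± 1.81 in CDDP and 71.9 ± 12.8 in CDDP+ACBP.

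For the genes with the smallest p under restraint, the 2 models gave these values. The pump's log2 fold change for Id1 was 1.12 ± 0.35 under restraint and -1.72 ± 0.35 under cisplatin, a difference of 2.84 ± 0.50 that passed (edgeR adjusted p = 0.00248). For Bmf it was -1.04 ± 0.28 and 1.09 ± 0.29, and the difference of -2.13 ± 0.40 passed (edgeR adjusted p = 0.00349). Lcn2 was lower with ACBP in both models, with log2 fold changes of -2.04 ± 0.58 under restraint and -4.91 ± 0.66 under cisplatin, and these differed by 2.87 ± 0.81 (edgeR adjusted p = 0.024), a call lost in 4 of 29 alternatives, among them limma voom (1.01, adjusted p = 0.325) and the fit without CDDP replicate 5 (1.66, edgeR adjusted p = 0.0547). Jund (1.91 ± 0.57) and Pfas (-0.86 ± 0.28) passed too. Of 29 alternatives, Jund lost its call in 9, among them limma voom (0.83, adjusted p = 0.0821) and the fits without CRS replicate 4 or 5, CDDP+ACBP replicate 3 or 4 or CRS+ACBP replicate 1 or 3, and its difference was 0.99 without CDDP replicate 5. Pfas lost its call in 18 of the 29, 13 of these being fits without 1 library. Among the rest was the fit without libraries over 3 above the lowest muscle score, which left 1 CRS+ACBP library. Sik1 had -1.28 ± 0.39 under restraint and -1.29 ± 0.39 under cisplatin, a difference of 0.01 ± 0.55 that did not pass (-0.57 without CDDP replicate 5). Saa2 had -4.11 ± 1.09 and -5.83 ± 1.18 and Saa1 -2.82 ± 1.02 and -4.94 ± 1.13, without a difference that passed (edgeR adjusted p = 0.412 and 0.302). Without CDDP replicate 5 these differences changed sign, to -1.22 for Saa2 and -0.55 for Saa1, as they did in limma voom (-1.72 for Saa2 and -1.35 for Saa1). The difference for G0s2 (-0.61 ± 0.95) did not pass, but without CDDP replicate 2 it was -2.78 (edgeR adjusted p = 0.0028) and limma voom gave -2.15 (adjusted p = 0.0118). That for Orm3 (0.59 ± 0.96) did not pass, and its sign changed in 3 of 29 alternatives, to -0.99 without CDDP replicate 5. The CDDP libraries varied widely for several of these genes, with Lcn2 at 585 ± 728 CPM and Saa1 at 845 ± 1580.4 CPM there.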

How the data were processed

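The authors deposited raw counts per gene for 30 liver libraries, with no normalization. The tools named in the submitters' processing notes are HISAT2 2.2.1 (alignment) and HTSeq 2.0.3 (counting), with build mm10. The annotation release is, like the strand setting, not given in the sources used here. Counts of antisense and overlapping genes, and of near-identical copies, are therefore uncertain. Of 48440 genes, 99.2% matched GENCODE vM21, the source of coordinates, and 5 summary lines were left out. Groups came from the treatment labels, which name no batch. Between 2 libraries of 1 group, chi-square divided by its degrees of freedom was at least 21.9 in CRS and 33.7 in CRS+ACBP, so none was a copy.

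Counts of the 10 libraries were tested alone with edgeR 4.0.16 in R 4.3.3 (TMM, filterByExpr, quasi-likelihood F test, 8 residual degrees of freedom), with Benjamini-Hochberg adjustment over all genes tested and calls under 0.05. Differences of pump effects were interaction terms over 20 libraries. Levels (CPM) used TMM factors over all 30 libraries, so they are near but not identical to the scale of each fit. The standard error is the absolute log2 fold change over the square root of F. A list's score averages log2 CPM over its genes (prior count 2). The test was tried on simulated counts, where it made 133 calls, 8 of them false, for the 10 libraries, and 102 calls, 6 of them false, for the difference by restraint. For genes changed 1.5-fold and 8-fold, recovery was 16% and 88% in the first and 2% and 90% in the second.

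The members and the 48 lists (981 entries, 798 genes tested) were chosen with earlier results of these data known. Named were Dbi and the Acbd genes, the 15 genes of smallest p with a mean of at least 5 CPM, for each list up to 2 members of smallest p and the most abundant one, and the 6 called genes of smallest p for each difference. Where a difference had 1 call, further genes were named with their values known, as were DESeq2's calls. The text gives a part of these. A withheld item is not reported here. Alternatives were RLE factors, a filter of 1 CPM in 5 libraries, no low-count filter, DESeq2 1.42.0, limma 3.58.1 voom with quality weights, all 30 libraries in 1 fit, a minimum fold of 1.2, robust dispersion, the muscle score as a covariate, leaving out libraries over 3 above the lowest muscle score, and leaving out each library. Leaving out libraries with a muscle score over 5 was added after seeing the data. Promoters came from RefSeq. Python 3.11.15 with pandas 2.3.3, Biopython 1.88 and matplotlib 3.10.9 handled sequences and figures.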

Additional observations from a re-analysis of the deposited data

Results flagged for a closer look

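In each group of 5 libraries, the highest or lowest library was set against the others by Dixon's gap ratio (limit 0.71). Of 192 sets of values so tested, 14 held such a library. The limit flags about 1 in 20 sets by chance when values are normally distributed. Most sets here were CPM values of named genes in the same libraries, so that rate may not hold for them. CRS+ACBP replicate 1 held 6 of the 14. It was the highest for Ppp1r3c (58.9 CPM, next 30.5), Cdkn1a (12.1 CPM, next 3.16), Hspa5 (928 CPM, next 406) and Arntl (21.2 CPM, next 1.35). It was the lowest for Ccnd1, the cyclin D1 gene (62.3 CPM, next 87.2), and the highest for the brain and nerve score (0.452, next -0.288). CRS+ACBP replicate 5 was the highest for Ift88 (5.95 CPM, next 4.59), toward the level of CRS. CRS replicate 5 was the highest for Orm2 (751 CPM, next 420.4) and Hspa8 (1192 CPM, next 849.8). CRS replicate 4 was the highest for 3110052M02Rik (11 CPM, next 7.66) and mitochondrial genes (17.4% of reads, next 9.93%), and the lowest in reads on genes (13957400, next 16538200). CRS replicate 3 was the highest for Mup1 (2.44 CPM, next 1.11) and CRS replicate 1 for Acta1 (729 CPM, next 196).

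The pump effect differed between restraint and no restraint for Saa2 (difference of log2 fold changes -5.52, edgeR adjusted p = 0.0171), a call lost in 8 of 29 alternatives. It differed between restraint and cisplatin for 11 of the named genes. Differences below 0 were found for Hectd2 (-3.85, edgeR adjusted p = 8.9e-07), 1500017E21Rik (-4.02, 8.9e-07), Hba-a1 (-8.62, 1.11e-06), Hba-a2 (-9.30, 2.54e-06), Hbb-bs (-9.63, 4.96e-06), Hbb-bt (-8.26, 2.53e-05), Bmf (-2.13, 0.00349) and Pfas (-0.86, 0.0445), the last with its call lost in 18 of 29 alternatives. Differences above 0 were found for Lcn2 (2.87, 0.024), Id1 (2.84, 0.00248) and Jund (1.91, 0.0314). Lcn2 lost its call in 4 and Jund in 9 of the 29, and their differences were 1.66 and 0.99 without CDDP replicate 5.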

How the results depend on the processing

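For CRS+ACBP against CRS, where edgeR called 0 genes, calls numbered 4 with no filter on low counts (Saa2, Lcn2, Orm3 and Sik1), 11 with DESeq2 and 5 without libraries over 3 above the lowest muscle score, which left 3 CRS libraries and 1 of CRS+ACBP, assumed to vary like the others. Leaving out 1 library gave 0 to 1 calls, the 1 being Orm3 without CRS replicate 3 (edgeR adjusted p = 0.0489). Over 21 alternatives, 64 of the 90 named genes kept the sign of their log2 fold change. In the fit left with 1 CRS+ACBP library Acot1 was at -0.10, Plin2 at -0.14 and Plin5 at -0.33. For the difference of the pump effect, restraint against no restraint, where 1 gene was called, calls numbered 2 with no filter, 6 with DESeq2 and 0 with all 30 libraries in 1 fit. They numbered 0 without libraries with a muscle score over 5, and 0 to 2 when 1 library was left out. Under these Saa2 lost its call in 8 alternatives. For the difference of the pump effect, restraint against cisplatin, where 2276 genes were called, calls numbered 453 without libraries with a muscle score over 5. They numbered from 1418 (without CRS replicate 4) to 3029 when 1 library was left out. Without CDDP+ACBP replicate 4 there were 1444 and without CRS+ACBP replicate 1 1449. Leaving out libraries over 3 above the lowest muscle score left 1 CRS+ACBP library in both differences too, so the numbers of calls in those fits are not given. Over the 10 fits of CRS+ACBP against CRS without 1 library, members at an unadjusted p under 0.05 numbered 1 to 4 lower for gluconeogenesis, 0 to 2 lower for cytokine signalling, 1 to 3 in each direction for insulin signalling, 2 to 4 lower for glucocorticoid receptor targets, 0 to 3 higher for autophagy, 1 to 3 higher for xenobiotic genes, and 0 to 4 higher and 0 to 2 lower for female-high genes. The causes were not tested. No paired analysis was possible because the labels number the libraries from 1 to 30 without numbering them within groups. With 5 libraries a group, the median standard error of a log2 fold change was 0.20, so that differences of 1.5-fold would mostly be missed.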

Other observations

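Gene groups not described above were read in the same 10 libraries, none of whose members passed the edgeR test. Of 24 targets of p53, the factor of the DNA damage response, 3 were higher and 1 lower in CRS+ACBP at an unadjusted p under 0.05 (median log2 fold change 0.07), and 0 of the 3 higher remained at that p without CRS+ACBP replicate 1. Cdkn1a (p21, an inhibitor of the cell cycle) had a log2 fold change of 1.46 ± 0.56, and 0.55 without that library. Ccnd1, cyclin D1, read 29.1, 52.3, 66.1, 46.7 and 60.1 CPM in CRS and 62.3, 89.7, 87.2, 89.6 and 96.1 in CRS+ACBP (log2 fold change 0.75 ± 0.20), the only one of 25 cell cycle genes at that p. Gadd45g, a stress-induced gene, read 8.63, 35.3, 68.5, 58.9 and 49.4 CPM in CRS and 22.3, 7.84, 9.24, 31.9 and 14.7 in CRS+ACBP (log2 fold change -1.34 ± 0.48). Genes of 3 abundant machineries lay on 1 side with small sizes: 26 of 28 nuclear-encoded respiratory chain genes and 29 of 30 cytosolic ribosomal protein genes were above 0, each with a median of 0.13, while 9 of 12 mitochondrial mRNAs were below 0 with a median of -0.25. None of these 70 genes had an unadjusted p under 0.05. Without CRS replicate 4, the library with the highest mitochondrial share, the medians were 0.05, 0.02 and -0.07, and without CRS+ACBP replicate 5, 7 of the 12 mitochondrial mRNAs were lower at that p (median -0.57).

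Among cell types of the liver wall and vessels, Tek, the angiopoietin receptor gene of endothelium, read 4.88, 4.42, 4.70, 5.08 and 5.31 CPM in CRS and 5.48, 6.31, 6.31, 8.24 and 7.84 in CRS+ACBP, with no overlap (log2 fold change 0.49 ± 0.17), while the 16 sinusoidal endothelium markers had a median of 0.00. Acta2, smooth muscle actin, read 8.40, 19.99, 4.89, 9.31 and 6.17 CPM in CRS and 3.55, 4.41, 6.81, 3.76 and 7.71 in CRS+ACBP (log2 fold change -0.89 ± 0.36, or -0.45 without CRS replicate 2, the highest library). Of 17 stellate cell markers 2 were lower at an unadjusted p under 0.05 (median -0.08), and 0 were without CRS replicate 2 or CRS+ACBP replicate 1 or 2.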
